A study of Mus musculus with 6 samples.

Results

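The genes described here are 50 splicing factors among the 24354 gene names of a TRAP-seq table from mouse choroid plexus (ChP), the tissue in the brain ventricles that secretes cerebrospinal fluid. They were taken by gene symbol: 11 SR proteins (Srsf genes), the 2 Tra2 proteins, 20 hnRNPs, 9 subunits of the splicing factors SF3a and SF3b, 3 U2AF subunits, and Ptbp1, Ptbp2 and the 3 Rbfox genes. Adult ChP was compared with embryonic ChP, with 3 libraries per age. The adults were aged 60 days by the labels, and the embryos were at embryonic day 16.5 (E16.5). Every animal carried both the Foxj1:cre and the EGFP:L10a alleles, so that Cre under the promoter of Foxj1, a transcription factor of cells with motile cilia, switched on a tagged ribosomal protein, and mRNA was recovered with the tagged ribosomes. No untagged control or other genotype was included, and no treatment was given. Each adult sample was a pool of 3 mice and each E16.5 sample a pool of 3 litters by the study's methods, while the series text gives 3 mice per age, so p-values describe the spread between these samples. Values are FPKM, in which reads are divided by the length of the transcript and by the mapped reads of the library, so that levels of different genes can be compared within a library. Comparisons between libraries depend on their scaling, since the summed FPKM ran from 459296 to 1060540, and other scalings were therefore tried.

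Splicing begins when the U1 particle binds the start of an intron and U2AF marks its end, where U2af2 contacts the polypyrimidine tract and U2af1 the terminal AG. SF3a and SF3b, parts of the U2 particle, then hold the branch point. SR proteins bind exonic enhancers through RNA recognition motifs and recruit the core machinery through a domain rich in arginine and serine. hnRNPs coat nascent RNA and often act in the opposite direction at exons, besides roles in RNA export, stability and translation. PTB and RBFOX proteins are regulators best known from neurons and muscle, where Ptbp1 gives way to Ptbp2 as neurons form.

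The libraries differed in depth in the same direction as in age. From the steps left by single reads among low FPKM values, the least deep library was adult replicate 3. Relative to it, depth was 1.31 in adult replicate 1, 2.90 in adult replicate 2 and 4.20 to 5.16 at E16.5. Adult replicates 1, 2 and 3 listed 5, 2 and 15 of the 50 splicing factors at 0, and the E16.5 libraries 0, 1 and 1. A value of 0 can come from low depth or from a failed estimate, and it is described here as listed at 0. Of 10 epithelial markers, 6 had every adult value above every E16.5 value (7.39% of all genes tested did). Every adult value was below in 3 (31.0% of all genes tested). Their summed level was 38838 to 53660 FPKM in adults and 2661 to 2992 FPKM at E16.5. Most of the adult sum came from Ttr (20922 to 31302 FPKM) and Enpp2 (14886 to 18732 FPKM, against 242 to 303 FPKM at E16.5). Ttr, the main secreted protein of this epithelium, was listed at 0 in all 3 E16.5 libraries, which were the deepest. The E16.5 sum therefore counts Ttr as 0, and the sums cannot be read as the amount of epithelium at each age. Whether this 0 is a failed estimate was not tested. The epithelial genes Folr1 (827 to 1048 FPKM) and Clic6 (740 to 810 FPKM) were abundant at E16.5.

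Promoter sequences are shown for 4 members, because these members recur in the results: Hnrnpu and Hnrnpm had the lowest adjusted p among the hnRNPs, Srsf7 the lowest among the SR proteins, and Tra2a had the most positive change. Each is the 250 bases before the RefSeq transcription start (GRCm38.p6), written 5′ to 3′ on the gene's strand, with matches to searched motifs in capitals.
Hnrnpu, chr1:178337816-178338065, minus strand: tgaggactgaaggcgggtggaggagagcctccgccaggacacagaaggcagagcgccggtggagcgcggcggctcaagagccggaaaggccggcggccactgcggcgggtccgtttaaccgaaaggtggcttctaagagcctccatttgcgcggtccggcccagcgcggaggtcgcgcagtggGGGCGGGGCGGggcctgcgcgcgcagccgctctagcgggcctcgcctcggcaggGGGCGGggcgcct
Hnrnpm, chr17:33685459-33685708, minus strand: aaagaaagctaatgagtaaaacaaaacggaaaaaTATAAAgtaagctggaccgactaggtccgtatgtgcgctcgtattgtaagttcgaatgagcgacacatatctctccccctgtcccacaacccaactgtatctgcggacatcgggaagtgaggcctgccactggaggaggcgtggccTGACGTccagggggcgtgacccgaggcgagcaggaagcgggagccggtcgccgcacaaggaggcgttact
Srsf7, chr17:80207306-80207555, minus strand: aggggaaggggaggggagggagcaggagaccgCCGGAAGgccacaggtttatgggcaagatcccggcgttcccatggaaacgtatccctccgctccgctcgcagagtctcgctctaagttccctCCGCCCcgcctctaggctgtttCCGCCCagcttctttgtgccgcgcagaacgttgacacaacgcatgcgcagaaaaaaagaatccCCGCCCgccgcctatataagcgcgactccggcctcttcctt
Tra2a, chr6:49264053-49264302, minus strand: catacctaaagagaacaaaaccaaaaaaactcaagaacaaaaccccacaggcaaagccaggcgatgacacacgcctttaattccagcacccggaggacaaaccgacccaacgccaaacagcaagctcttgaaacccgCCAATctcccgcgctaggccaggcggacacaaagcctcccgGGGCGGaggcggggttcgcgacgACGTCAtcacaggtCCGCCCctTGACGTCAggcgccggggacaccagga

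The capitals mark 3 GC boxes in Hnrnpu, a cyclic AMP response core and a TATAAA match in Hnrnpm, an ETS core and 3 GC boxes in Srsf7, and a CCAAT box, 3 cyclic AMP response cores and 2 GC boxes in Tra2a. Only exact matches are marked, whatever their distance from the start, and the TATAAA of Hnrnpm stands near the end farthest from it. The Hnrnpm stretch lies inside the GENCODE span of that gene (chr17:33646233-33686860). Matches on either strand were taken, and neighbouring matches may overlap, as they do in Hnrnpu and Tra2a. RefSeq promoters were found for 44 of the 50 members. Their median C plus G content was 61.6%, against 60.4% for 8653 promoters of protein-coding genes tested, and their median ratio of observed to expected CpG was 0.938 against 0.745. The GC box GGGCGG was present in 31 of the 44 promoters (70.5%, against 61.4% of tested genes) and CCAAT in 21 (47.7%, against 36.6%). CCGGAAG, the core bound by ETS factors, was present in 12 (27.3%, against 14.4%), and TGACGT, the core of the cyclic AMP response element, in 9 (20.5%, against 10.6%). TATAAA was present in 4 (9.09%, against 5.74%) and the E-box CACGTG in 3 (6.82%, against 8.60%). Both strands were searched for each motif. These are descriptions of letters, with no test of binding.

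Of the splicing factors tested, 9 were called lower in adult than in E16.5 ChP and none was called higher. Of the 50, 48 had a mean above 1 FPKM and entered a limma fit on log2(FPKM + 1) over 11601 genes. The remaining members, Rbfox1 and Rbfox3, were at or below that mean. The 9 calls were higher at E16.5 at an adjusted p under 0.05 (18.8%, where 8.83% of all genes tested were called in this direction): 6 hnRNPs (Hnrnpab, Hnrnpd, Hnrnph1, Hnrnpk, Hnrnpm and Hnrnpu), the SR proteins Srsf5 and Srsf7, and the SF3b subunit Sf3b3. In each of the 9 the ages did not overlap, which gives an exact two-sided permutation p of 0.1, the smallest that 3 against 3 libraries allow. No member was called higher in adult by limma (2.12% of all genes were), nor did any reach an unadjusted p under 0.05 in that direction (5.34% of all genes). At an unadjusted p under 0.05, 25 members were higher at E16.5 (52.1%, against 25.9% of all genes).

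Most genes in the table were lower in adult libraries, and member counts are given beside that background. The change (adult minus E16.5) was negative in 44 of 48 members and in 72.8% of all genes. The median change was -1.58 on the log2(FPKM + 1) scale for the members and -0.86 for all genes, a difference of -0.72, and 38 members lay below the median of all genes. In 28 members every adult value was below every E16.5 value (58.3%, against 31.0% of all genes), in 0 every adult value was above (7.39% of all genes), and in 20 the ages overlapped. The 33 members above 0 in all 6 libraries had a median of -1.20, and all 9 calls were among them (27.3%, where 6.87% of genes above 0 in all 6 libraries were called when fitted alone). Under each of the 18 alternative settings tried, the members' median was below the all-gene median, with differences from -0.94 to -0.31. The smallest difference came with 0.01 FPKM added in place of 1, where 28 of the 48 members lay below the all-gene median. The number of members with a negative change fell from 44 to 39 without adult replicate 3 and to 40 under quantile normalization.

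The number of calls depended on single libraries and on scaling. Without adult replicate 1 it was 0 (4.17% of all genes called), without adult replicate 2 it was 15 (14.7% of all genes) and without adult replicate 3 it was 11 (10.7% of all genes). Without E16.5 replicate 1, 2 or 3 it was 1, 0 and 0 (4.12%, 3.01% and 3.51% of all genes). The 1 call there was Hnrnpa1, which is not among the 9. Median-ratio scaling, which lowered the gap between the ages for all genes to a median of -0.58, left 0 calls (5.69% of all genes), and rescaling to the same sum of FPKM, which widened it to -1.47, gave 26 (28.0% of all genes). Fewer cells of a type and less RNA per cell cannot be told apart in these bulk samples.

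**Figure D1:**
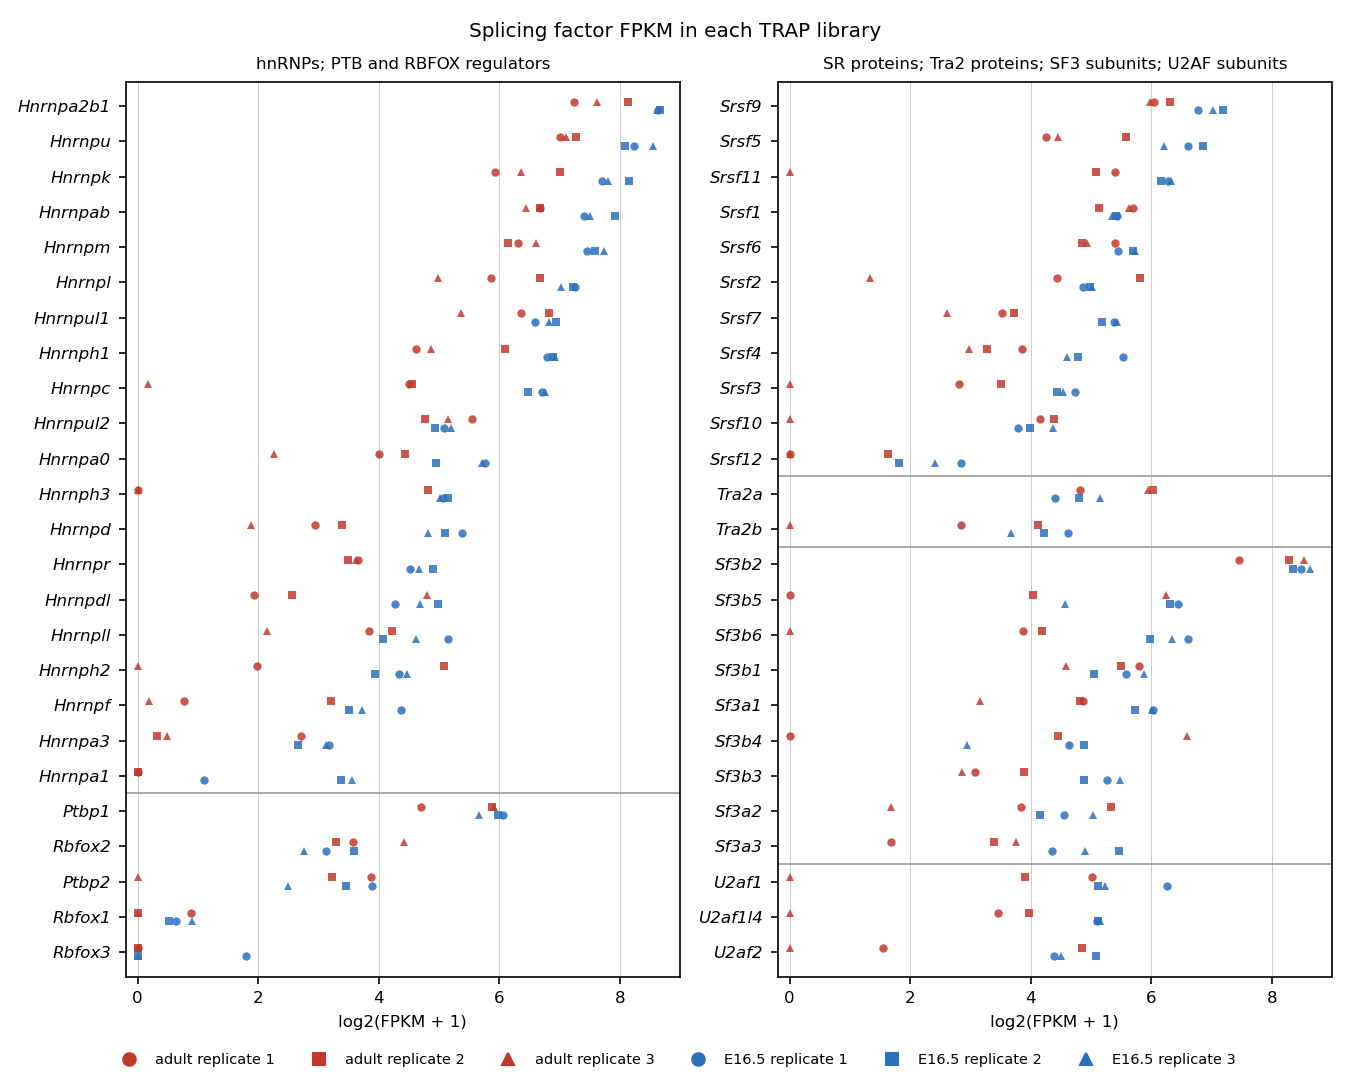
FPKM of all 50 splicing factors in each library, as log2(FPKM + 1) on the horizontal axis, with adult libraries in red, E16.5 libraries in blue and a marker shape for each replicate. The hnRNPs at the top of their block were abundant at both ages, and points at the left edge are values listed at 0, of which 15 were in adult replicate 3.

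**Figure D2:**
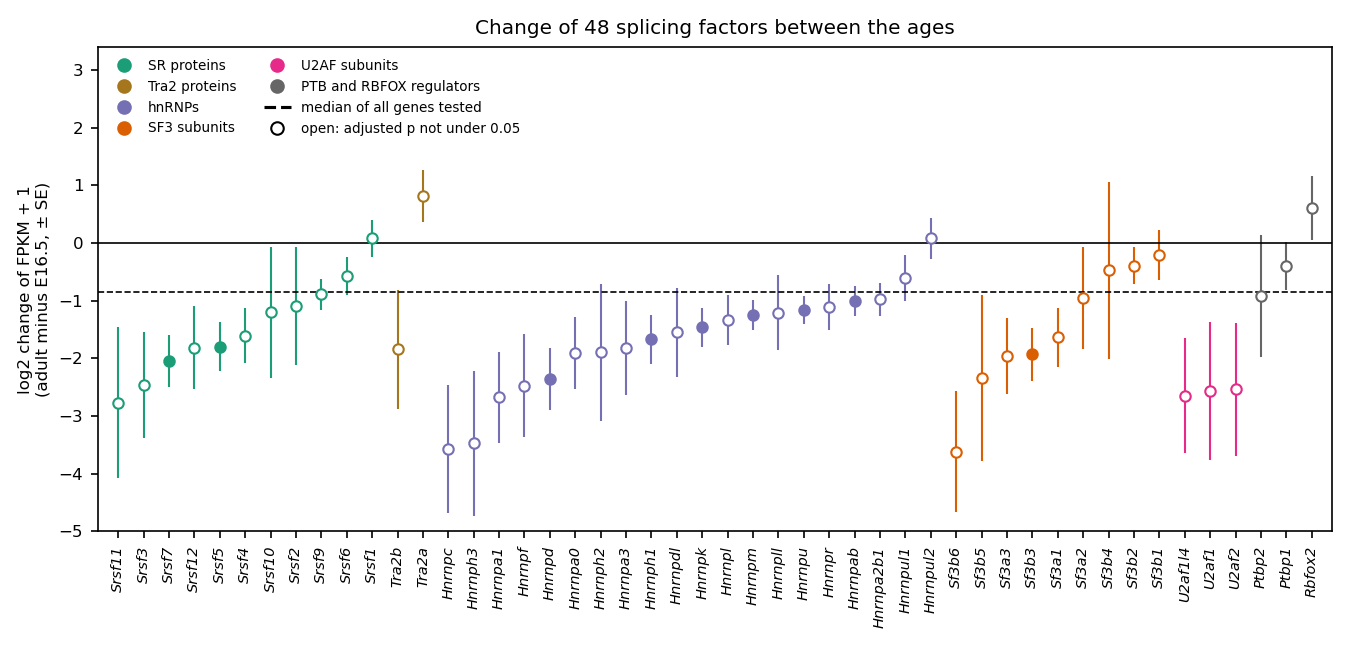
Change of the 48 tested splicing factors on the log2(FPKM + 1) scale, adult minus E16.5, with bars for the limma standard error, colours for role groups and filled points for the 9 called members. The dashed line is the median of all genes tested, at -0.86, and 4 members lie above 0.

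The hnRNPs, the largest role group, held the largest number of calls, 6 of 20 (30%, against 8.83% of all genes). Their median change was -1.50 (-0.86 for all genes). In 14 of them every adult value was below every E16.5 value (70%, against 31.0% of all genes). Hnrnpu (chr1:178321108-178337797), a nuclear scaffold protein that binds RNA and chromatin, had 128, 155 and 137 FPKM in adults and 301, 269 and 373 FPKM at E16.5. All adult values lay below all E16.5 values, and the change was -1.15 (SE 0.24, limma adjusted p = 0.0302). Hnrnpm (chr17:33646233-33686860), which binds GU-rich RNA, had 78.0, 70.2 and 96.8 FPKM in adults and 175, 192 and 213 FPKM at E16.5. Its groups did not overlap either, and the change was -1.24 (SE 0.26, limma adjusted p = 0.0290), the lowest adjusted p of any member. Hnrnpk (chr13:58391142-58403343), a binder of C-rich sequence, had 59.9, 127 and 80.9 FPKM in adults against 208, 285 and 223 FPKM at E16.5, with a change of -1.46 (SE 0.34, limma adjusted p = 0.0368). The highest adult value of Hnrnpk was in replicate 2, the deepest adult library. Hnrnpab (chr11:51600100-51606847), a close relative of Hnrnpd, had the tightest adult group of the called hnRNPs relative to its mean, with 101, 101 and 86.3 FPKM against 169, 240 and 180 FPKM. Its change of -1.01 (SE 0.26, limma adjusted p = 0.0483) was the smallest among the 9 calls.

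Hnrnpd (chr5:99955935-99978938), also called AUF1, binds AU-rich elements and regulates mRNA decay. It had 6.69, 9.48 and 2.70 FPKM in adults and 40.6, 33.2 and 27.3 FPKM at E16.5. The lowest E16.5 value was well above the highest adult value, and its change of -2.36 (SE 0.54, limma adjusted p = 0.0359) was the largest among the called hnRNPs. Hnrnph1 (chr11:50376990-50386528), a binder of G-runs, had 23.6, 67.6 and 28.2 FPKM in adults and 110, 118 and 120 FPKM at E16.5, with a change of -1.67 (SE 0.43, limma adjusted p = 0.0468). Its E16.5 values were close together (116 ± 5.22 FPKM, SD, n = 3), while the adult values spread over 39.8 ± 24.2 FPKM. None of the 6 was called without adult replicate 1 or without any E16.5 replicate, and the number of hnRNPs called was then 0 in each case but E16.5 replicate 1, where it was 1 (Hnrnpa1). It was 10 without adult replicate 2, and 5 without adult replicate 3 (Hnrnpc, Hnrnpd, Hnrnpdl, Hnrnpm and Hnrnpu). When single libraries were left out, limma adjusted p ranged from 0.0319 to 0.0769 for Hnrnpu and from 0.0181 to 0.0780 for Hnrnpm. Hnrnpab lost its call whichever library was left out (limma adjusted p from 0.0520 to 0.126).

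Among the hnRNPs not called, Hnrnpa2b1, which guides RNA export and transport, was the most abundant, with 150, 281 and 197 FPKM in adults and 398, 406 and 393 FPKM at E16.5. The ages did not overlap, with a change of -0.98 and a limma adjusted p of 0.0652. Hnrnpc, which binds U-tracts in nascent transcripts, had 21.7, 22.4 and 0.126 FPKM in adults and 104, 88.4 and 107 FPKM at E16.5. Its change of -3.57 had a limma adjusted p of 0.0772 with adult replicate 3 far below the other adult values. It was called without adult replicate 3 (change -2.12, limma adjusted p = 0.00861), with sample weights and under quantile normalization, among other settings. Hnrnph3 was listed at 0 in adult replicate 3 and stood at 4.77e-07 FPKM in adult replicate 1, against 27.1 FPKM in adult replicate 2 and 31.4 to 34.6 FPKM at E16.5. Hnrnpul2, a relative of Hnrnpu, was the only hnRNP with a positive change, with 45.7, 26.2 and 34.6 FPKM in adults and 33.0, 29.6 and 35.6 FPKM at E16.5. The groups overlapped, and the change of 0.08 (SE 0.36, limma adjusted p = 0.884) turned negative under both rescalings to an equal sum and without adult replicate 1.

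Hnrnpa1, the best-studied splicing repressor of the family, cannot be read as a fold. Adult replicates 1 and 3 listed it at 0 and adult replicate 2 at 0.000374 FPKM, with 1.14, 9.39 and 10.8 FPKM at E16.5. Of the 50-base stretches in its transcripts, 28.2% also occur in 20 other annotated genes, and how the authors' counting divided such reads is not given in the sources used here. The same limit touches Hnrnpf (61.9% of stretches shared) and Hnrnpa3 (27.1%, shared with 46 other genes). Among the called members the shared portion was 23.8% in Hnrnpab, 17.8% in Hnrnpk, 13.5% in Hnrnpm, 10.1% in Srsf5, 6.04% in Hnrnpu and 5.06% in Hnrnpd. Of the 25 tested members with at most 5% shared stretches, 3 were called (12%: Hnrnph1, Sf3b3 and Srsf7), and the median change of the 25 was -1.33. Of the 23 with more, 6 were called (26.1%), and the median was -1.79. Over all genes, which were not split by shared stretches, the share called was 8.83%. The called Hnrnpd (5.06%) and Hnrnpu (6.04%) lay just above the 5% limit, so the split of the calls depends on where that limit is set.

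SR proteins had 2 calls among 11 members (18.2%, against 8.83% of all genes) and a median change of -1.60 (-0.86 for all genes). In 8 of them every adult value was below every E16.5 value (72.7%, against 31.0% of all genes). Srsf7 (chr17:80200080-80207307), which carries a zinc knuckle and serves as an adapter for mRNA export, had 10.4, 12.2 and 5.12 FPKM in adults and 40.9, 35.5 and 42.1 FPKM at E16.5. The highest adult value was well below the lowest E16.5 value. The change was -2.05 (SE 0.45, limma adjusted p = 0.0324), and Srsf7 was called under 11 of 18 alternatives, the most of the 9. Srsf5 (chr12:80945504-80950507), whose expression responds to insulin and growth signals, had 18.2, 47.1 and 21.0 FPKM in adults and 97.1, 115 and 73.5 FPKM at E16.5, with a change of -1.79 (SE 0.43, limma adjusted p = 0.0414). Its highest adult value, in replicate 2, was still below the lowest E16.5 value. Both calls were lost without adult replicate 1 and without any E16.5 replicate, with limma adjusted p up to 0.108 for Srsf7 and 0.146 for Srsf5. Srsf5 also lost its call without adult replicate 3 (limma adjusted p = 0.0597).

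Srsf1, the prototype of the family, did not follow this direction. It had 50.7, 34.3 and 48.6 FPKM in adults (44.5 ± 8.95, SD, n = 3) and 42.4, 41.9 and 39.8 FPKM at E16.5 (41.4 ± 1.39, SD, n = 3), so that the ages overlapped. The change was 0.08 (SE 0.32, limma adjusted p = 0.871), and it was negative under both rescalings to an equal sum (-0.73 and -0.07) and without adult replicate 1 (-0.02). Srsf9, its closest relative and the most abundant SR protein here, had 65.2, 78.2 and 62.3 FPKM in adults and 109, 146 and 130 FPKM at E16.5, without overlap (change -0.89, limma adjusted p = 0.0739). Srsf11 had 41.1, 33.0 and 0 FPKM in adults and 76.7, 70.9 and 79.8 FPKM at E16.5. Its change of -2.77 (limma adjusted p = 0.193) included the library listed at 0, and without adult replicate 3 the change was -1.02 (limma adjusted p = 0.0469). Srsf6 (change -0.57), Srsf4 (-1.60), Srsf3 (-2.47) and Srsf12 (-1.81) also had all adult values below all E16.5 values, with limma adjusted p from 0.0706 to 0.272. In Srsf2 and Srsf10 the ages overlapped.

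The Tra2 proteins bind GAA-rich exonic enhancers as partners of SR proteins, and the fitted changes of their 2 genes had opposite signs. Tra2a (chr6:49243924-49264033) had 27.3, 64.2 and 60.9 FPKM in adults (50.8 ± 20.4, SD, n = 3) and 20.2, 26.8 and 34.3 FPKM at E16.5 (27.1 ± 7.05, SD, n = 3). Adult replicates 2 and 3 were above every E16.5 value, and adult replicate 1 lay within them. The change of 0.82 (SE 0.44, limma adjusted p = 0.245) was the most positive of all members and did not pass the test. Tra2b had 6.21, 16.5 and 0 FPKM in adults and 23.5, 17.6 and 11.7 FPKM at E16.5, with overlap (change -1.84, limma adjusted p = 0.257).

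All 9 SF3 subunits had a negative change in the fit over all 6 libraries (72.8% of all genes did), with a median of -1.64 (-0.86 for all genes). In that fit only Sf3b3 was called (11.1%, against 8.83% of all genes). The change of Sf3b4 was positive without adult replicate 1 (1.37). Those of Sf3b1 (0.14) and Sf3a2 (0.012) were positive without adult replicate 3. Sf3b3 (chr8:110810239-110846787) is a scaffold subunit of SF3b. It had 7.41, 13.9 and 6.29 FPKM in adults and 37.4, 28.5 and 43.6 FPKM at E16.5, without overlap, and the change was -1.93 (SE 0.46, limma adjusted p = 0.0404). That call was lost without adult replicate 1 and without any E16.5 replicate (limma adjusted p up to 0.137), while 3 subunits were called without adult replicate 3. Sf3b2, the most abundant of the 50 members over the 6 libraries, had 175, 313 and 372 FPKM in adults and 357, 327 and 398 FPKM at E16.5. The ages overlapped (change -0.40, limma adjusted p = 0.420), and the change turned positive (0.17) under quantile normalization. Sf3b1, which clamps the branch point, also overlapped, with 54.6, 44.1 and 23.1 FPKM in adults and 47.0, 32.1 and 57.8 FPKM at E16.5 (change -0.21, limma adjusted p = 0.761).

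The small subunits of SF3b were scattered in the adult libraries. Sf3b6, which contacts the branch point adenosine, had 13.7, 17.2 and 0 FPKM in adults and 96.4, 61.9 and 79.8 FPKM at E16.5. Its ages did not overlap, and its change of -3.62 (limma adjusted p = 0.0657) was the most negative of all members. Without adult replicate 3 it was -2.28 (limma adjusted p = 0.0115). Sf3b5 had 0, 15.5 and 74.5 FPKM in adults and 86.0, 78.3 and 22.6 FPKM at E16.5, and Sf3b4 had 0, 21.0 and 95.5 FPKM against 24.0, 28.6 and 6.66 FPKM. Both were listed at 0 in adult replicate 1 and highest among adults in replicate 3, so that the ages overlapped. Of the SF3a subunits, Sf3a1 (change -1.64) and Sf3a3 (-1.96) had all adult values below all E16.5 values, with limma adjusted p of 0.0809 and 0.0946, and Sf3a2 overlapped.

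The 3 U2AF subunits were each listed at 0 in adult replicate 3, and none was called. U2af1 had 31.6, 13.9 and 0 FPKM in adults and 76.0, 33.8 and 36.6 FPKM at E16.5 (change -2.57, limma adjusted p = 0.187). U2af1l4, a shorter relative of U2af1, had 10.0, 14.7 and 0 FPKM in adults against 33.4 to 34.5 FPKM at E16.5 (change -2.65, limma adjusted p = 0.123), with 42.4% of its stretches shared with other genes. For both genes every adult value was below every E16.5 value. U2af2 had 1.93, 27.7 and 0 FPKM in adults and 20.0, 33.0 and 21.8 FPKM at E16.5, with overlap (change -2.53, limma adjusted p = 0.178). Without adult replicate 3 the changes were -1.08 for U2af1, -1.41 for U2af1l4 (limma adjusted p = 0.0411) and -1.47 for U2af2, while without adult replicate 2 that of U2af2 was -3.89 (limma adjusted p = 0.0247). With adult replicates 1 and 3 left out, an alternative chosen after seeing the data, the change of U2af2 was 0.18.

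The PTB and RBFOX regulators gave no call in either direction. Ptbp1, the form of most cells outside neurons, had 25.1, 58.2 and 59.6 FPKM in adults and 66.0, 62.0 and 49.9 FPKM at E16.5 (change -0.40, limma adjusted p = 0.522). Ptbp2, the form of developing neurons, was lower at both ages, with 13.6, 8.34 and 0 FPKM in adults and 13.8, 9.95 and 4.65 FPKM at E16.5. In each of the 6 libraries Ptbp1 exceeded Ptbp2, and it made up 64.9%, 87.5% and 100% of the sum of both in adults and 82.7%, 86.2% and 91.5% at E16.5. Rbfox2, the form found in many tissues, had 11.0, 8.81 and 20.5 FPKM in adults and 7.74, 11.1 and 5.79 FPKM at E16.5 (change 0.60, SE 0.55, limma adjusted p = 0.473), and this change was negative (-0.15) after rescaling to the same sum. Rbfox1 reached at most 0.873 FPKM in any library. Rbfox3, the neuronal nuclear antigen NeuN, was listed at 0 in all adult libraries and had 2.47, 0 and 0 FPKM at E16.5. Its only value above 0 was in E16.5 replicate 1, the library in which the summed neuronal markers were also highest, at 140 FPKM.

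The same FPKM were also taken as a share of each library's sum, and the share of the splicing factors was lower in adults. Leaving out Mir6236, which took 32.7% to 51.7% of the summed FPKM in adults and 13.3% to 15.0% at E16.5, the 50 members made up 0.291%, 0.403% and 0.338% of the sum in adults and 0.699%, 0.686% and 0.915% at E16.5. The highest adult share was below the lowest E16.5 share. With libraries rescaled to the same sum without Mir6236, the median change was -1.72 for the members and -0.99 for all genes. The 20 hnRNPs took 0.155%, 0.215% and 0.156% in adults and 0.394%, 0.407% and 0.543% at E16.5, and the 11 SR proteins 0.0547%, 0.0592% and 0.0350% against 0.104%, 0.107% and 0.133%. The most abundant member was Sf3b2 in all adult libraries and E16.5 replicate 3, and Hnrnpa2b1 in E16.5 replicates 1 and 2.

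**Figure D3:**
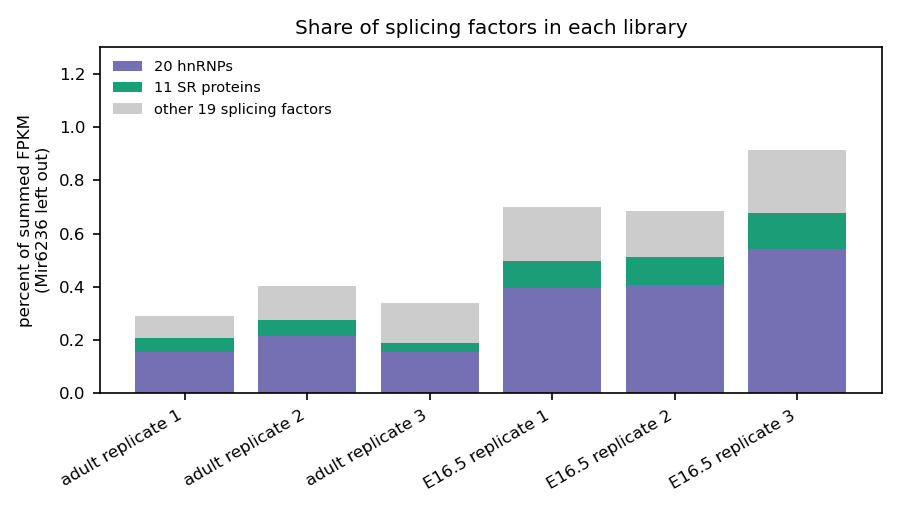
Percent of summed FPKM, with Mir6236 left out, held by the 20 hnRNPs, the 11 SR proteins and the other 19 splicing factors, as stacked bars for each library. The adult bars reach 0.291% to 0.403% and the E16.5 bars 0.686% to 0.915%.

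Ratios between related members within a library do not depend on how libraries are scaled, apart from the added 1 FPKM. Among 11 pairs of relatives, chosen after their values had been seen, 4 had ratios that did not overlap between the ages. Srsf1 made up 43.7%, 30.5% and 43.8% of the sum of Srsf1 and Srsf9 in adults and 28.0%, 22.4% and 23.5% at E16.5, a difference of 0.97 in the log2 ratio. Tra2a made up 81.5%, 79.6% and 100% of the sum of Tra2a and Tra2b in adults and 46.3%, 60.4% and 74.6% at E16.5, a difference of 2.66. Tra2b was listed at 0 in adult replicate 3, and without that library the difference was 1.32. Srsf4 made up 24.8%, 23.7% and 18.8% of Srsf4 plus Srsf6 in adults and 51.6%, 34.3% and 30.7% at E16.5 (difference -1.04). Hnrnpu made up 73.6%, 85.5% and 79.9% of Hnrnpu plus Hnrnpul2 in adults and 90.1%, 90.1% and 91.3% at E16.5 (difference -1.24). Since the pairs were chosen with their values known, no test was made. How often ratios of other gene pairs separate between the ages was not counted, so the 4 of 11 have no background beside them. The other 7 pairs, among them Ptbp1 with Ptbp2 and Hnrnpl with Hnrnpll, overlapped between the ages.

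**Figure D4:**
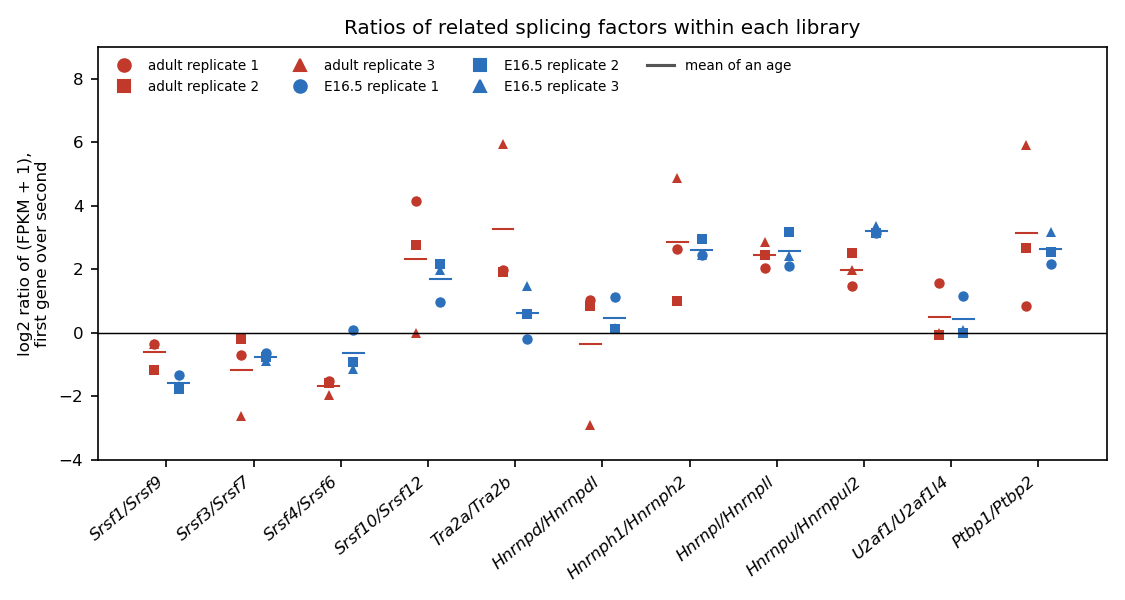
Log2 ratio of (FPKM + 1) between related splicing factors, first gene over second, in each adult (red) and E16.5 (blue) library, with lines for the mean of an age. The ages separate for Srsf1 with Srsf9, Srsf4 with Srsf6, Tra2a with Tra2b and Hnrnpu with Hnrnpul2, and overlap for the other 7 pairs.

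SR and hnRNP genes are known for autoregulation, in which a protein promotes splicing of its own transcript into a form that is degraded by nonsense-mediated decay. In GENCODE M21, 27 of the 50 members (54%) have a transcript annotated as such, against 29.5% of 10813 protein-coding genes tested. This was so for 9 of 11 SR proteins, both Tra2 genes, 10 of 20 hnRNPs, all 3 U2AF subunits and 1 of 9 SF3 subunits. A transcript with a retained intron is annotated for 37 members (74%, against 60.6%), and the median number of transcripts per gene is 8 against 5. Gene-level FPKM add these forms together, so the values above do not separate productive from degraded transcripts.

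A list of 116 other splicing genes was set beside the members. Of 105 tested, 5 were called higher at E16.5 (4.76%, below the 8.83% of all genes) and 0 higher in adult by limma, with 38 (36.2%, above the 25.9% of all genes) and 1 at an unadjusted p under 0.05. Their median change was -1.02, which is -0.16 relative to all genes. In 50 genes every adult value was below every E16.5 value (47.6%, above the 31.0% of all genes), and in 1, Khdrbs3, every adult value was above. Among the calls were Snrpf of the Sm ring, Lsm3 and Lsm4 of the U6-associated ring, and Magoh of the exon junction complex. Lsm3 had 0, 2.11 and 0 FPKM in adults and 51.2, 56.7 and 45.0 FPKM at E16.5 (change -5.15, SE 0.65, limma adjusted p = 0.00674), and it was called whichever library was left out. Magoh had 110, 45.0 and 58.1 FPKM in adults and 225, 344 and 217 FPKM at E16.5 (change -1.94, limma adjusted p = 0.0265). Without adult replicates 1, 2 and 3 the 5 calls became 4, 23 and 13, and without any of the E16.5 replicates they became 1.

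The subgroups of that list differed in their medians, with no test of the difference. The U1, U2 and Sm proteins had a median change of -2.38 over 13 genes, the exon junction complex -1.94 over 5, and the tri-snRNP, Prp19 complex and helicase group -1.31 over 36. The hnRNP-related proteins outside the naming rule had a median of -0.97 over 10 genes, close to that of all genes, and 1 call (10%, against 8.83%). In 9 of them every adult value was below every E16.5 value (90%, against 31.0% of all genes). At an unadjusted p under 0.05 in limma, 7 were higher at E16.5 (70%, against 25.9%). SR protein kinases, which phosphorylate the serines of SR proteins, had a median of -0.16 over 7 genes, and SR-related and U1-associated proteins -0.53 over 9, with no call in either group. The remaining subgroup, other splicing regulators, had a median of -0.76 over 25 genes and no call. Its changes were positive in 8 genes and negative in 68% (72.8% of all genes), and 9 genes lay below the median of all genes. Srrm2, a large SR-related protein of nuclear speckles, had 184, 209 and 189 FPKM in adults and 114, 139 and 199 FPKM at E16.5 (change 0.40, limma adjusted p = 0.364).

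Summed markers of the cell cycle, of neurons and neural progenitors, of mesenchyme and of motile cilia were also lower in adults. Of 8 cell cycle markers, 5 (Mki67, Top2a, Ccnb1, Aurkb and Birc5) were listed at 0 in all adult libraries. Ccnb1 was at 0 in all E16.5 libraries as well, and Aurkb and Birc5 reached at most 1.58 and 0.904 FPKM there. Mcm2, Cdk1 and Pcna overlapped between the ages. Mcm2 was highest in adult replicate 3 (29.4 FPKM, against 9.53 to 22.5 FPKM at E16.5). The summed level of the 8 was 4.83 to 45.8 FPKM in adults and 52.3 to 98.3 FPKM at E16.5. Of 12 markers of neurons and neural progenitors, 7 were listed at 0 in all adults, of which Neurod6 and Eomes were also at 0 in all E16.5 libraries, with sums of 2.25 to 8.86 FPKM in adults and 21.0 to 140 FPKM at E16.5. The 6 mesenchymal markers summed to 13.3 to 21.9 FPKM in adults and 57.7 to 69.3 FPKM at E16.5. The 8 motile cilia markers include Foxj1, whose promoter drove Cre in the targeted cells. They summed to 357 to 476 FPKM in adults and 2236 to 2684 FPKM at E16.5. Sums of the 4 red blood cell markers in the table (0 to 6.49 FPKM in adults, 5.11 to 303 FPKM at E16.5), of 6 endothelial markers (0.435 to 18.5 FPKM in adults, 12.7 to 39.6 FPKM at E16.5), of 6 macrophage markers (0.0695 to 4.71 and 0.509 to 7.55 FPKM) and of 6 oligodendrocyte and astrocyte markers (1.05 to 73.0 and 2.92 to 10.1 FPKM) overlapped between the ages. The part of other cell types, of the cell cycle, of cilia and of depth in the changes of the splicing factors was not tested.

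**Figure D5:**
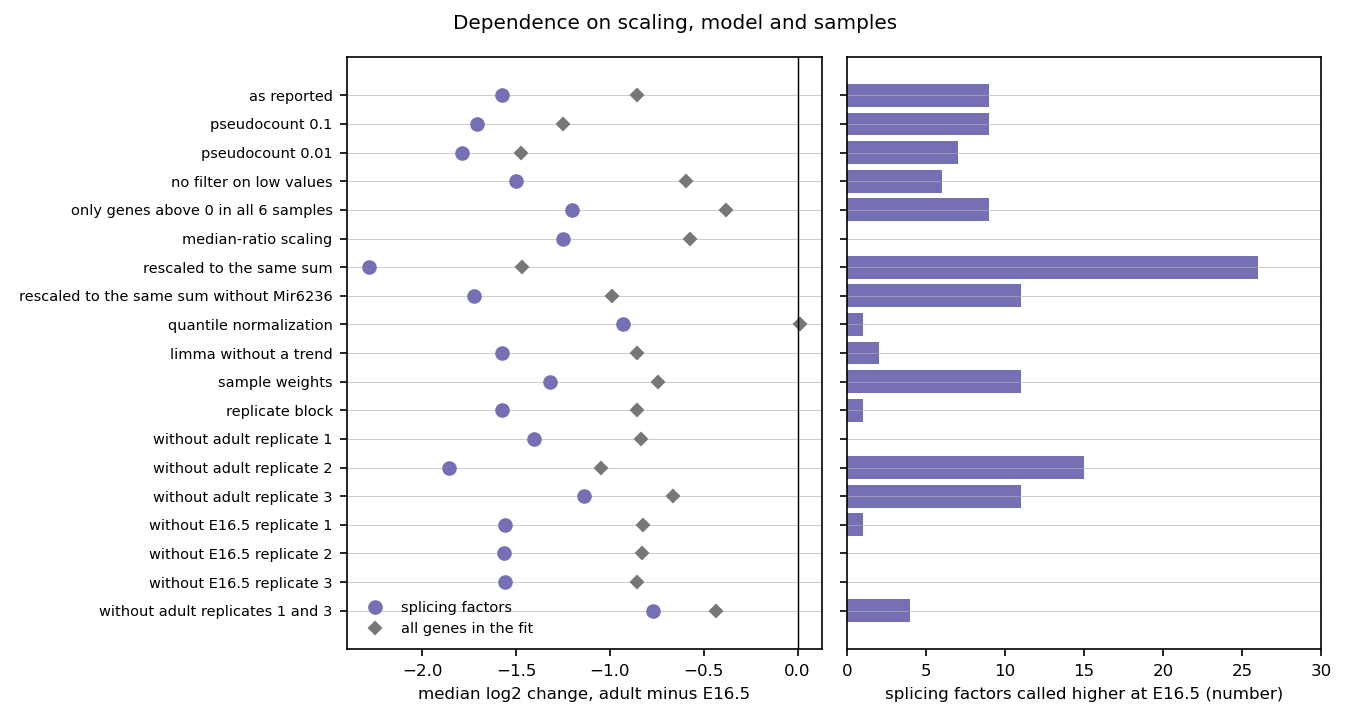
Left, the median log2 change (adult minus E16.5) of the splicing factors and of all genes in the fit under each setting. Right, the number of splicing factors called higher at E16.5, which runs from 0 to 26. The members' median lies to the left of that of all genes in every row.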

How the data were processed

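TRAP mRNA from ChP was made into libraries with the SMARTer Pico kit after ribosomal depletion and sequenced as 50-base single-end reads. The authors aligned reads to mm10 with STAR 2.4.0 and calculated the deposited gene FPKM with Cuffquant of Cufflinks. The sources used here do not state which annotation Cuffquant was given. Counts behind the DESeq2 test of the authors were not analysed here. All 6 columns matched labelled samples.

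Deposited FPKM were not rescaled. The test was limma 3.58.1 (R 4.3.3), with a trend on intensity and no covariates, on log2(FPKM + 1), a scale that understates changes of low genes. It took genes whose mean over the samples exceeded 1 FPKM, with Benjamini-Hochberg adjustment over these 11601 genes to a threshold of 0.05. The fit was run on simulated independent normal values, which did not model the values at 0 or the depth difference between the ages. That run therefore cannot speak for either. Members were matched by symbol to GENCODE M21 (mm10), which gave coordinates and 50-base stretches shared between genes. Depth was estimated from low values of 2527 genes, 36 to 63 per library, of which 66.7% to 82.1% lay within 0.1 of a whole read.

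Members and lists were chosen with earlier results of these data known. Named genes were all calls, the 3 most abundant members of each role group, the PTB, RBFOX and Tra2 genes, the most positive changes, and called genes of the wider list, of which 1 is not reported here. Others, such as Hnrnpa1, Hnrnpc, Hnrnph3, Sf3b5, Srsf3 and Khdrbs3, were named after their values were seen. Alternatives covered pseudocount, filter, scaling, trend, sample weights, replicate block and leaving out samples.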

Additional observations from a re-analysis of the deposited data

How the results depend on the processing

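Members called higher in adult numbered 0 under all 18 alternatives, and the members' median stayed below that of all genes. Members called higher at E16.5 (9) became 0 under median-ratio scaling, 26 after rescaling to the same sum, 1 under quantile normalization, 2 without a trend and 4 without adult replicates 1 and 3 (chosen after seeing the data), and 0 to 15 when a library was left out. In that order, hnRNP calls (6) became 0, 15, 1, 1 and 2 (0 to 10 when a library was left out), SR calls (2) 0, 6, 0, 1 and 1 (0 to 3), with 1 at a pseudocount of 0.01 and 1 with no filter. SF3 calls (1) became 0, 4, 0 and 0 under the first 4 of these, 2 after the same-sum rescaling without Mir6236 and 3 with sample weights (0 to 3 when a library was left out). Wider list calls (5) became 3 and 1 at pseudocounts of 0.1 and 0.01, 2 by median ratio, 45 by the same sum, 13 without Mir6236, 2 without a trend, 17 with sample weights and 8 without adult replicates 1 and 3 (1 to 23 when a library was left out), and its 0 calls higher in adult became 1 under quantile normalization. Over all genes, 1024 higher at E16.5 and 246 higher in adult became 660 and 348 by median ratio, 3254 and 120 by the same sum and 504 and 569 by quantile normalization.

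The members' median change (-1.58) was -2.29 by the same sum, -0.93 by quantile normalization and -0.77 without adult replicates 1 and 3 (-1.86 to -1.14 when a library was left out). Signs turned for Hnrnpul2 (same sum -0.72, without Mir6236 -0.076, without adult replicate 1 -0.11, without adult replicates 1 and 3 -0.30, and -0.11 to 0.28 when a library was left out), Srsf1 (-0.73, -0.074, -0.017 and -0.26 in the same order), Ptbp2 (quantile 0.15, and -1.67 to 0.26 when a library was left out, the latter without adult replicate 3), Rbfox2 (same sum -0.15), Sf3b2 (quantile 0.17) and U2af2 (without adult replicates 1 and 3 0.18). Other members turned positive too, among them Sf3b4 (1.37 without adult replicate 1). Without adult replicate 3, Srsf10 (0.22), Srsf2 (0.17), Sf3b1 (0.14) and Sf3a2 (0.012) did so. Members with a positive change numbered 4 as reported, 9 without adult replicate 3 and 8 under quantile normalization. The causes were not tested.

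The labels state no pairing of samples by replicate number. Deviations of same-numbered samples from their group means correlated at 0.00089, 0.0439 and 0.0150 across genes, and those of other pairs at -0.0292 to 0.0135. Correlations of this kind cannot exclude that same-numbered samples were handled together. With the replicate number as a block, 1 member was called (Hnrnpk), so hnRNP calls became 1, SR and SF3 calls 0, and calls over all genes 452 and 112. The adult libraries, with 10.3% to 36.4% of tested genes listed at 0 against 3.68% to 4.02% at E16.5, limit what can be seen of low members.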
